A study of Mus musculus with 14 samples.

Results

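The extracellular matrix of the gut wall and the fibroblasts that make most of it were described through 40 genes: collagen chains, basement membrane proteins, elastic fibre proteins, proteoglycans, matricellular proteins, lysyl oxidases, matrix proteases with their inhibitors, and the 2 receptors for platelet-derived growth factor (PDGF). The genes were given as a list of symbols, and all 40 were found among the 46855 gene symbols of the deposited expression table. RNA came from whole ileum, the last stretch of the small intestine, of wild-type C57BL/6N mice, an inbred strain. Untreated mice were taken at postnatal day 14, while suckling and before weaning (P14, 4 libraries), or at day 24, when weaned (P24, 4 libraries). A second set of mice received intraperitoneal injections at days 14 and 15 and was killed at day 16. It received 100 µL of phosphate-buffered saline alone (PBS, 3 libraries) or 0.1 µg per g body weight of recombinant mouse interleukin-22 in the same volume (rmIl22, 3 libraries). The labels' age field disagrees, with day 14 under PBS and day 24 under rmIl22, so the titles decided the groups. No sex is given in the labels.

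Fibrillar collagens are secreted as precursors, assembled into fibres and cross-linked by lysyl oxidases, while type IV collagen, laminins, nidogen and perlecan form the sheet-like basement membrane under epithelium and around vessels, muscle and nerve. Metalloproteinases of the MMP family cut these proteins and TIMPs inhibit the enzymes. In the gut, subepithelial fibroblasts that carry the receptor PDGFRA shape villi, and the receptor PDGFRB marks pericytes and other mural and stromal cells.

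Promoter sequences are shown for the 2 type IV collagen genes, which are transcribed away from each other. Those of Col1a2, a chain of type I collagen, and of Timp3, which fell the most with age, are shown as well. The Col4a1 to Col4a2 ratio was 2.04 to 2.44 in all 14 libraries. That of Col6a1 to Col6a2, whose promoters do not overlap, was 2.30 to 2.81, and any part of promoter sharing was not tested. The sequences are RefSeq windows of 300 bases (250 before and 50 after a start site, build GRCm38.p6), and 25 of the 40 genes had an entry. Each is written on its gene's own strand. Capitals mark the CCAAT box (letters CCAAT) and the GC box (letters GGGCGG), each searched on both strands with overlapping matches counted.
Col4a1, chr8:11312777-11313076, minus strand: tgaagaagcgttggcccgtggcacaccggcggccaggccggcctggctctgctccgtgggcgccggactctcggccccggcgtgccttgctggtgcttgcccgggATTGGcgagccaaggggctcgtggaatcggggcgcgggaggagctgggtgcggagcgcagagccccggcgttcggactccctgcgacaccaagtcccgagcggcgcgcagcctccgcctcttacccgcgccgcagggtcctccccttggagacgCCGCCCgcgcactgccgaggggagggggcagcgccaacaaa
Col4a2, chr8:11312555-11312854, plus strand: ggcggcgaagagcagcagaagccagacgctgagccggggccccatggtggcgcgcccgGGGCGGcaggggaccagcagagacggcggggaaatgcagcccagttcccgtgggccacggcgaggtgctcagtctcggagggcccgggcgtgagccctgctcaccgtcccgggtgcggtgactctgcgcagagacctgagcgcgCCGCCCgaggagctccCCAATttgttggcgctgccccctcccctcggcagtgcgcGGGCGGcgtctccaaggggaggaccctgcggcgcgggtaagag
Col1a2, chr6:4505368-4505667, plus strand: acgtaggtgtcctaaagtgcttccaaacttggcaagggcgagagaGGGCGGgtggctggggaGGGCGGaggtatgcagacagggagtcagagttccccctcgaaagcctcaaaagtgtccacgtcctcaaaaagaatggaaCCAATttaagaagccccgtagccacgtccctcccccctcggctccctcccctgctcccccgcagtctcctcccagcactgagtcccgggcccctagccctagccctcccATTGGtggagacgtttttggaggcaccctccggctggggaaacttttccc
Timp3, chr10:86300162-86300461, plus strand: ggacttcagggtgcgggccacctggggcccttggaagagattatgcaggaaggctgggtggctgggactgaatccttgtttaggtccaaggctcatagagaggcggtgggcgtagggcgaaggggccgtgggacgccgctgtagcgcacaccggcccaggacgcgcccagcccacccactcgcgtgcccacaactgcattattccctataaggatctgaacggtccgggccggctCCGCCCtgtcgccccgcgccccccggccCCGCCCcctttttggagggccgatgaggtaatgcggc
The Col4a1 and Col4a2 windows share 78 bases (chr8:11312777-11312854), and the annotated genes themselves overlap by 22 bases at their starts. Col4a2 had 1 CCAAT box and 3 GC boxes, Col4a1 had 1 of each, Col1a2 had 2 of each, and Timp3 had 2 GC boxes and 0 CCAAT boxes. Of the 25 genes with an entry, 11 had a CCAAT box in at least 1 window and 18 had a GC box, against 37.4% and 35.7% of all 32851 windows. A TATA box (letters TATAAA) was found in 2 of the 25 genes and in 13.6% of all windows. The spaced palindrome TTCNNNGAA, a form bound by STAT factors such as the STAT3 that acts downstream of interleukin-22, was found in 0 of the 25 genes and in 8.3% of all windows. Some genes have more than 1 window, so these gene counts and window shares have different denominators.

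Expression is given as TPM (a relative abundance of transcripts), a unit that corrects for gene length and gives each library an equal total. Libraries are named by the numbers of their columns in the deposited table, and values are listed in the order of libraries 1, 2, 4 and 5 for P14, 1, 2, 6 and 8 for P24, and 1, 2 and 3 for PBS and for rmIl22. Depth, recovered from the TPM steps, was 35.33 to 46.1 M assigned reads per library, and each of the 40 genes had 343 to 108275 reads in each library. Together the genes held 0.173 to 0.318% of all TPM at P14, 0.107 to 0.141% at P24, 0.174 to 0.223% in PBS and 0.127 to 0.234% in rmIl22. Reg3b, an antimicrobial lectin induced by interleukin-22, took 1.45 to 5.08% of TPM in the rmIl22 libraries and 0.0226 to 0.365% in the PBS libraries. It took 5.45 to 7.92% in the P24 libraries and 0.046 to 0.101% in the P14 libraries. Xist, the RNA of the silenced X chromosome, was high in P14 libraries 4 and 5, P24 libraries 2, 6 and 8 and rmIl22 libraries 2 and 3. It was at 28.4 to 73.0 TPM there and at most 0.16 TPM elsewhere, so all PBS mice and 1 of 3 rmIl22 mice were Xist-low. The Y-linked gene Ddx3y was at 16.8 to 31.6 TPM in the Xist-low libraries and at most 0.085 TPM in the Xist-high ones. By these genes the Xist-low mice were male and the Xist-high mice female, so sex and injection cannot be fully told apart.

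Libraries of 1 group did not carry the matrix genes alike. P14 library 4 had the highest P14 value in 38 of the 40 genes, and their summed level there was 3176 TPM, against 2138, 1864 and 1725 TPM in libraries 1, 2 and 5. This was not limited to matrix genes. Library 4 was also highest in 8 of 8 cell cycle, 10 of 11 endothelial and 5 of 8 epithelial genes, but in 1 of 6 mesothelium and 0 of 8 adipocyte markers. Its median over all tested genes was 10.42 TPM, against 8.76, 9.45 and 8.14 TPM in libraries 1, 2 and 5. P24 library 1 had the lowest P24 value in 32 of 40, with a sum of 1066 TPM against 1383, 1273 and 1415 TPM. Among the rmIl22 libraries, library 2 was lowest in 30 of 40, with a sum of 1268 TPM against 2345 and 2265 TPM. Its smooth muscle markers were also low (a sum of 1196 TPM for 10 genes, against 3928 and 2061 TPM). It was lowest as well in 18 of 22 fibroblast, 8 of 10 neuron and glia and 6 of 6 mesothelium markers, but in only 2 of 8 cell cycle genes. Both PDGF receptors were highest there. Reg3b took 5.08% of TPM in library 2, against 1.61 and 1.45% in libraries 1 and 3.

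By mean TPM over the 14 libraries, Col3a1 (type III collagen) led with 282 TPM, ahead of the collagen-binding glycoprotein gene Sparc (274 TPM), decorin (Dcn, 189 TPM), Col4a1 (119 TPM) and Col6a1 (104 TPM). These 5 were the genes at 100 TPM or more, and Col3a1, Sparc and Dcn together made up 33.4 to 45.0% of the summed matrix level in a library. The lowest 5, all under 10 TPM, were Col12a1 (9.62 TPM), Lox (6.63 TPM), Fbln2 (6.33 TPM), Fbln5 (5.41 TPM) and Vcan (2.4 TPM). No gene was below 1.12 TPM in any library, and all 40 passed the expression filter in each comparison. The P24 mean was the lowest of the 4 group means in all 40 genes, and the PBS mean at day 16 lay between the P24 and P14 means in 34 of 40. Without P14 library 4 these counts were 38 and 22, and without P24 library 1 they were 35 and 31. How often this order of means occurred over all genes was not counted, so these counts cannot be read as particular to matrix genes. By limma, 43.7% of all genes tested were lower at P24 than at P14 (adjusted p under 0.05). The untreated and injected mice are separate experiments, so these 4 means are set side by side and were not tested.

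**Figure D1:**
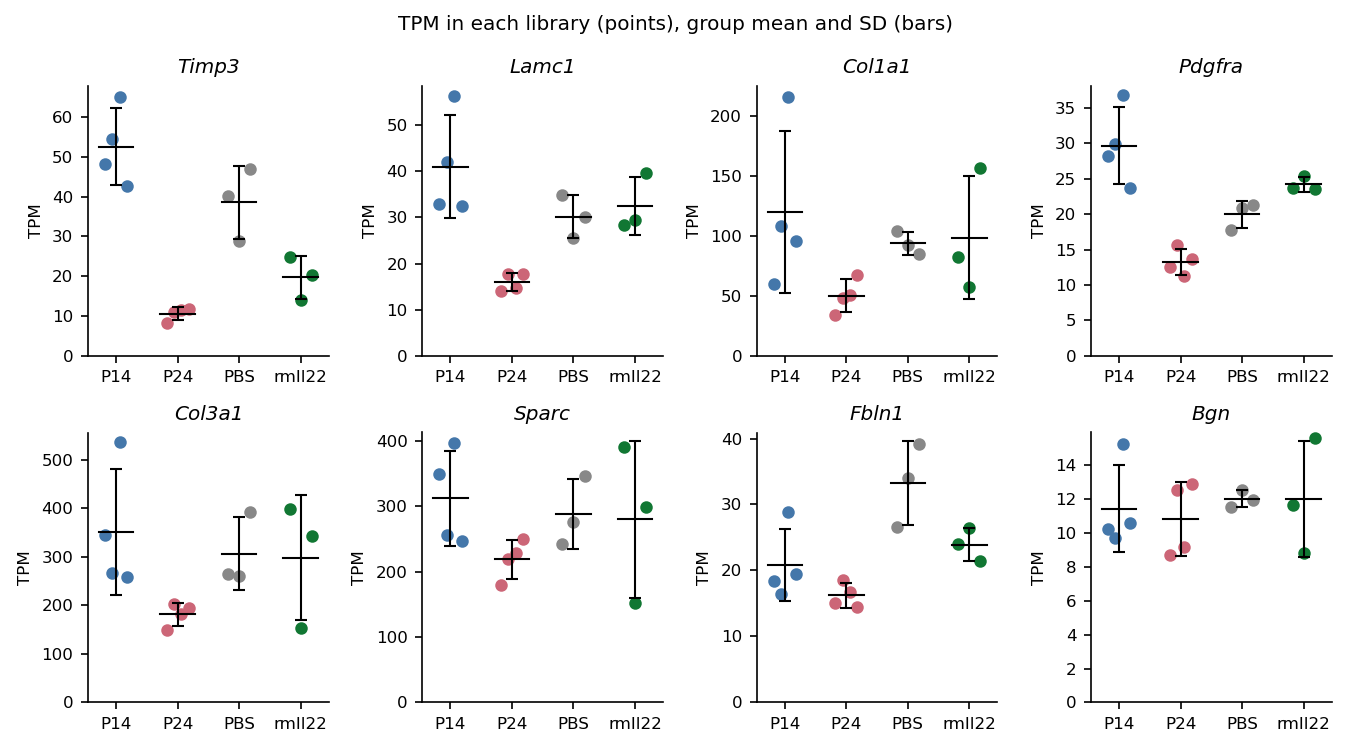
TPM of 8 matrix genes in each library (points) by group, with the group mean and SD as bars, on linear axes from 0 (n = 4 for P14 and P24, n = 3 for PBS and rmIl22). Timp3 drops from 42.6 to 64.9 TPM at P14 to 8.18 to 11.9 TPM at P24, with rmIl22 (14.0 to 24.8 TPM) below PBS (28.8 to 46.9 TPM), while Bgn overlaps in all groups.

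The first comparison asked how the matrix genes differed between P24 and P14 ileum. At P24, 32 of the 40 were lower, 0 were higher and 8 did not pass the test (limma on log2(TPM + 1), adjusted p under 0.05 over 14651 genes). Among all genes tested, 43.7% were lower and 14.6% higher, and the median log2 fold change was -0.25, against -0.72 for the matrix genes. All 40 fold changes were negative. With each library scaled to the median of its genes, 4139 genes in all were lower and 4323 higher, in place of 6400 and 2146. On that scale 23 of the 40 matrix genes were lower and 0 higher, against 28.3% lower among all genes, the matrix median was -0.44 against 0.02, and the signs of Bgn and Fbln2 turned positive (0.21 and 0.10). All 4 P24 values lay below all 4 P14 values in 26 of the 40 genes, and in 39.4% of all genes, and that count was also 26 without P14 library 4 and without P24 library 1. Without P14 library 4 the count of lower genes was 28 and the matrix median -0.54, against -0.18 for all genes. Without P24 library 1 the count was 26 and the matrix median -0.65, against -0.25 for all genes. In these fits 7395 of 14106 and 7526 of 14388 genes were called in either direction. In whole tissue, fewer cells of a type and less RNA per cell cannot be told apart. P14 mice were suckling and P24 mice weaned, so age and weaning cannot be told apart either. A change "with age" below means P24 against P14.

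**Figure D2:**
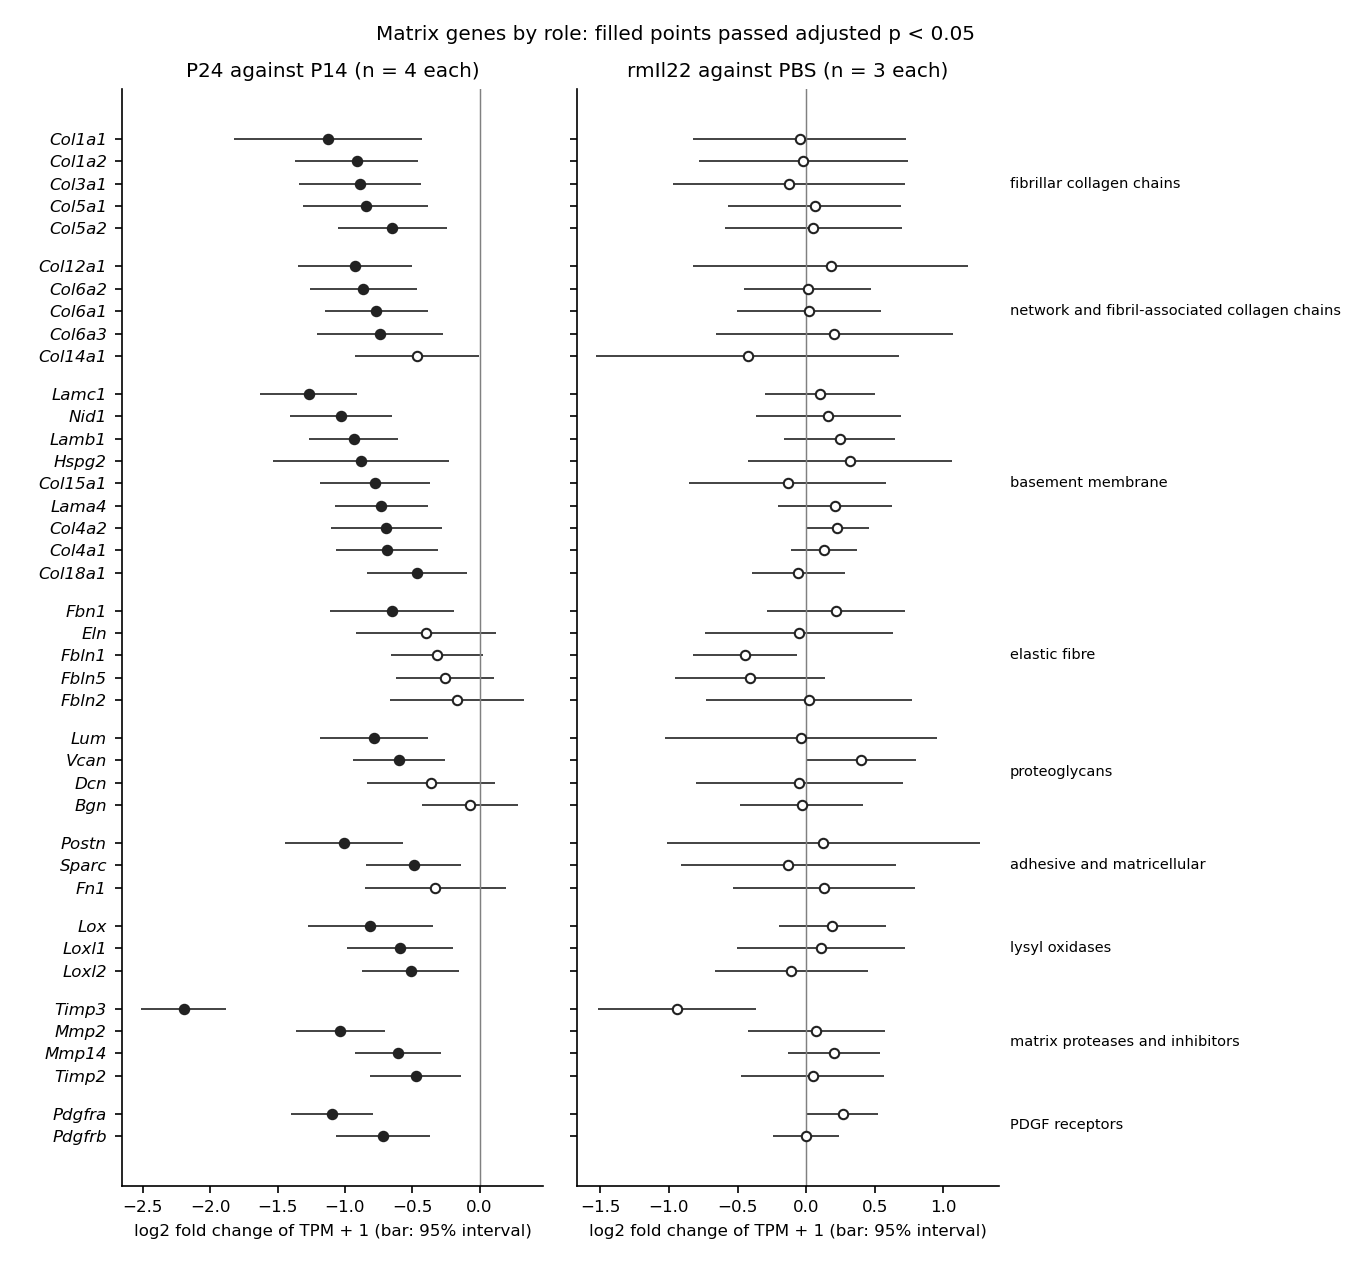
Log2 fold changes of TPM + 1 (x axis) for the 40 matrix genes, grouped by role, in P24 against P14 (left) and rmIl22 against PBS (right). Bars are 95% intervals and filled points passed adjusted p under 0.05: 32 on the left, all lower, and 0 on the right.

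All 5 fibrillar collagen chains were lower at P24. Col3a1 (chr1:45311538-45349706, plus strand, mm10), the most abundant, stood at 344, 266, 537 and 258 TPM at P14 and at 149, 203, 183 and 194 TPM at P24. The groups did not overlap, and P14 library 4 was far above the rest. The log2 fold change was -0.89 (SE 0.21, adjusted p = 0.00329). Col1a1 (chr11:94936224-94953042), which encodes the alpha 1 chain of type I collagen, had the third largest fall of the 40 genes, from 60.0, 108, 216 and 95.8 TPM to 34.1, 48.5, 50.7 and 67.5 TPM. Here the groups overlapped, since P14 library 1 was below P24 library 8, and the error was the widest of the group (-1.13, SE 0.32, adjusted p = 0.0101). Its partner chain Col1a2 fell by 0.91 without overlap (adjusted p = 0.00301). The type V chains Col5a1 and Col5a2, which set fibril diameter, fell by 0.85 and 0.65, and Col5a2 did not pass on the median scale.

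Of the 5 network and fibril-associated chains, 4 were lower. Col6a1, a chain of the beaded filaments of type VI collagen, was measured at 117, 105, 181 and 94.8 TPM at P14 and 63.2, 80.5, 67.4 and 72.1 TPM at P24, without overlap (-0.77, SE 0.17, adjusted p = 0.00287). Its partners Col6a2 (-0.86) and Col6a3 (-0.74) and the fibril-associated Col12a1 (-0.92) fell as well, and Col6a3 did not pass on the median scale. Col14a1, another fibril-associated chain, had 13.9, 9.32, 19.4 and 9.82 TPM at P14 and 6.95, 11.6, 8.38 and 9.01 TPM at P24. Its groups overlapped, and it did not pass (-0.46, SE 0.21, adjusted p = 0.0773).

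All 9 basement membrane genes were lower. Lamc1 (chr1:153218922-153332786, minus strand), the gamma 1 chain found in most laminins, had the second largest fall of all 40. It was at 33.0, 42.0, 56.4 and 32.6 TPM at P14 and at 14.2, 17.7, 14.7 and 17.8 TPM at P24. The highest P24 library was well under the lowest P14 library, and the fall was 2.55-fold in mean TPM (-1.27, SE 0.16, adjusted p = 5.28e-05). Nid1, which links laminin to type IV collagen, fell by 1.03, and the laminin chains Lamb1 and Lama4 fell by 0.93 and 0.73, all 3 without overlap. Col4a1 stood at 115, 140, 206 and 112 TPM at P14 and at 75.3, 93.6, 84.4 and 91.6 TPM at P24, and its log2 fold change of -0.69 (SE 0.17, adjusted p = 0.00515) matched the -0.69 of its head-to-head neighbour Col4a2. Hspg2, which encodes the heparan sulphate proteoglycan perlecan, was the least even, at 8.03, 20.5, 29.0 and 14.8 TPM against 6.69, 8.24, 8.15 and 11.4 TPM. P14 library 1 fell inside the P24 range, and the call (-0.88, SE 0.30, adjusted p = 0.0246) held in 8 of 14 alternative settings and not on the median scale. Col15a1 fell by 0.78, and Col18a1, with the smallest change here, fell by 0.46 with overlapping groups. Col18a1 did not pass on the median scale and was called in 6 of 14 alternative settings.

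Among 5 elastic fibre genes only the microfibril gene Fbn1 was lower (-0.65, SE 0.21, adjusted p = 0.0197). Fbn1 was called in 10 of 14 alternative settings and not on the median scale, where 0 of the 5 were called. Fbln1, a fibulin that binds elastic fibres and basement membranes, stood at 18.5, 16.5, 28.9 and 19.4 TPM at P14 and at 15.0, 18.6, 16.8 and 14.4 TPM at P24. Fbln2 was at 7.75, 4.14, 10.6 and 5.48 TPM and at 4.33, 7.18, 6.42 and 5.57 TPM. Fbln5, which is needed for elastic fibre assembly, was at 5.94, 3.81, 7.38 and 4.90 TPM and at 4.19, 5.32, 3.94 and 3.99 TPM. In each of these 3 fibulins the groups overlapped. Their log2 fold changes were -0.32, -0.17 and -0.26, and their 95% intervals ran from -0.66 to 0.02, from -0.67 to 0.33 and from -0.62 to 0.11. Elastin (Eln) had a log2 fold change of -0.40 (adjusted p = 0.168).

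Proteoglycans divided. Lumican (Lum), a small leucine-rich proteoglycan that binds collagen fibrils, fell by 0.78 (adjusted p = 0.0035), and Vcan, the large hyaluronan-binding versican, fell by 0.60 from 3.04, 2.76, 3.80 and 2.24 TPM to 1.12, 2.00, 1.47 and 1.85 TPM, without overlap. Decorin, of the same family as lumican, was at 267, 130, 258 and 151 TPM at P14 and at 125, 157, 157 and 161 TPM at P24. Its P14 libraries formed a high and a low pair, with 3 of the 4 P24 values between them, and it did not pass (-0.36, SE 0.22, adjusted p = 0.173). Biglycan (Bgn) had the smallest change of the 40 genes, at 10.2, 9.71, 15.3 and 10.6 TPM against 8.73, 12.5, 9.15 and 12.9 TPM (-0.07, 95% interval -0.43 to 0.28).

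Of the adhesive and matricellular genes, Sparc and Postn were lower and fibronectin (Fn1, -0.33, adjusted p = 0.256) did not pass. Sparc was at 349, 256, 396 and 247 TPM at P14 and at 179, 219, 228 and 251 TPM at P24, with P24 library 8 just above P14 library 5. Its fall of 0.49 (SE 0.16, adjusted p = 0.0222) was not called on the median scale and was called in 8 of 14 alternative settings. Periostin (Postn), a matricellular protein of collagen-rich tissue, fell by 1.01 without overlap. The 3 lysyl oxidases, which cross-link collagen and elastin, were all lower. Loxl2, the most abundant, was at 13.7, 13.8, 21.1 and 11.3 TPM and at 8.37, 11.4, 10.3 and 9.83 TPM, and P24 library 2 lay just above P14 library 5 (-0.51, SE 0.16, adjusted p = 0.0196). Lox fell by 0.81 and Loxl1 by 0.59, and of the 3 only Lox passed on the median scale. Loxl2 was called in 10 of 14 alternative settings and Loxl1 in 12.

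The proteases Mmp2 and Mmp14 and the inhibitors Timp2 and Timp3 were all lower. Mmp2, a gelatinase made by stromal cells, was at 46.2, 42.2, 63.9 and 37.1 TPM at P14 and at 20.3, 25.2, 20.1 and 23.4 TPM at P24 (-1.03, SE 0.15, adjusted p = 0.000143). Mmp14, the membrane protease that activates it, fell by 0.60 and Timp2 by 0.48, and Timp2 did not pass on the median scale and was called in 9 of 14 alternative settings. Timp3 (chr10:86300372-86349506, plus strand), which encodes the inhibitor that binds to the matrix itself, had the largest fall of all 40 genes. It stood at 48.1, 54.4, 64.9 and 42.6 TPM at P14 and at 8.18, 11.0, 11.5 and 11.9 TPM at P24, a 4.94-fold lower mean (-2.20, SE 0.15, adjusted p = 2.04e-07). In the Xist-low libraries alone it was at 48.1 and 54.4 TPM against 8.18 TPM, and in the Xist-high libraries at 64.9 and 42.6 TPM against 11.0 to 11.9 TPM. Timp3 lies inside Syn3 on the opposite strand with overlapping exons. The strand setting of the counting is not given in the sources used here, and Syn3 reached at most 0.73 TPM in any library. The authors' deposited table gave Timp3 a log2 fold change of -1.98, and that table held 23 of the 40 genes as lower and 0 as higher at adjusted p under 0.05, all 23 among the 32 called here. Of all 23529 genes in the authors' deposited table, 20.1% were lower and 20.2% higher by the same threshold.

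Both PDGF receptors were lower. Pdgfra (chr5:75152292-75198215) was at 28.2, 29.9, 36.8 and 23.7 TPM at P14 and at 12.5, 15.6, 11.3 and 13.7 TPM at P24, a clear gap between the groups (-1.09, SE 0.14, adjusted p = 4.36e-05). Pdgfrb fell by 0.72 (SE 0.16, adjusted p = 0.00266), also without overlap.

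Ratios of 2 genes within a library do not depend on how the library was scaled. For type IV collagen, the Col4a1 to Col4a2 ratio was 2.23 at P14 and 2.25 at P24 with overlapping groups (geometric means, range 2.12 to 2.44 over both groups, n = 4 each, exact permutation p = 0.771, two-sided). Col6a1 to Col6a2 was 2.43 and 2.62 (exact p = 0.114), Col1a1 to Col1a2 was 1.28 and 1.10 (exact p = 0.371), and Col3a1 to Col1a1 was 3.12 and 3.71 (exact p = 0.429). In the other 4 pairs the groups did not overlap. Lamb1 to Lamc1 went from 0.804 to 1.02, Dcn to Lum from 2.63 to 3.55, Mmp14 to Mmp2 from 0.430 to 0.576, and Pdgfra to Pdgfrb from 2.33 to 1.82. Each gave an exact permutation p of 0.0286, the smallest that 4 against 4 libraries allow, and 0.0572 after Benjamini-Hochberg adjustment over the 8 ratios, so none passed 0.05.

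**Figure D3:**
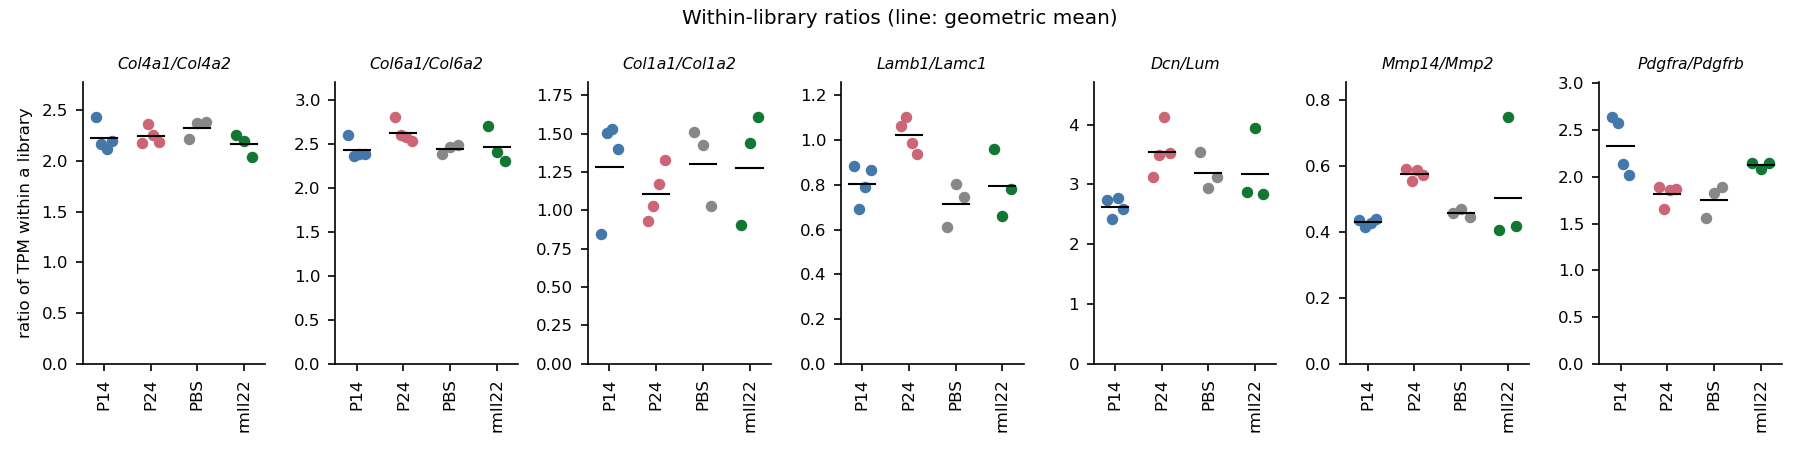
Ratios of the TPM of 2 matrix genes within each library (points), with the geometric mean of each group as a line, on linear axes from 0. Col4a1/Col4a2 stays between 2.04 and 2.44 in all 14 libraries, while Mmp14/Mmp2 is 0.415 to 0.439 at P14 and 0.556 to 0.590 at P24.

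Other genes of matrix making and turnover were read from lists. Of 22 tested collagen processing genes, such as hydroxylases and chaperones, 14 were lower and 0 higher at P24, with the largest fall in the collagen galactosyltransferase Colgalt1 (-1.89). Of 16 other collagen chains, 13 were lower and 1 higher, from Col16a1 (-2.02), a fibril-associated chain, to Col8a2 (0.86). Of 38 other matrix proteins, 25 were lower and 5 higher, from the hyaluronan link protein Hapln1 (-3.69) to the epithelial laminin chain Lamb3 (3.45). Among 23 matrix breakdown genes, 13 were lower and 4 higher, from the membrane metalloproteinase Mmp15 (-1.35) to the Paneth cell matrilysin Mmp7 (2.95). Of 19 genes of TGF-beta and PDGF signalling, 12 were lower and 1 higher, from the ligand Pdgfb (-2.09) to Smad4 (0.35). The list medians ran from -1.04 for the other collagen chains to -0.44 for the signalling genes, against -0.25 for all genes. On the median scale, lower calls numbered 9, 13, 19, 9 and 8 in these lists and higher calls 2, 2, 8, 4 and 2. Among all genes tested, 43.7% were lower and 14.6% higher on the deposited scale. With median scaling 28.3% of all genes were lower (4139 of 14651) and 4323 were higher.

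Markers of the cells that make or hold matrix moved in different directions with age. Of 18 tested fibroblast markers, 12 were lower and 2 higher at P24, from the stromal transcription factor Tcf21 (-1.34) to the dipeptidase Dpep1 (5.22). Dpep1 rose from 13.1 to 21.9 TPM at P14 to 592 to 793 TPM at P24 and set the list's sum, 471 to 716 TPM at P14 and 1059 to 1204 TPM at P24, or 455 to 703 and 411 to 467 TPM without it. At P24 it was above the highest value of any matrix gene (537 TPM), and whether fibroblasts carried its rise was not tested. All 11 endothelial markers were lower, with sums of 95.1 to 145 and 61.2 to 72.2 TPM, and the largest fall in Cdh5 (-0.92). Of 7 pericyte markers 6 were lower (Ndufa4l2, -0.99), with sums of 161 to 274 and 148 to 212 TPM, and of 9 neuron and glia markers 8 were lower (Ret, -2.68), with sums of 56.7 to 82.2 and 17.7 to 27.7 TPM. Of 10 smooth muscle markers, 1 was lower (Myocd, -0.78) and 2 higher (Des, 0.94), or 1 and 4 on the median scale, with sums of 1717 to 3428 and 2270 to 3605 TPM. Mesothelium had 2 of 5 higher, Upk1b (2.15) and Krt19 (1.69), a keratin that epithelium also makes, while Msln, Upk3b and Lrrn4 did not pass. Krt19 made up most of that list's sum, at 392 to 551 and 1306 to 1814 TPM, and without it the sums were 16.9 to 35.4 and 35.6 to 60.0 TPM. Adipocytes had 6 of 7 higher and 1 lower (Cfd, 4.09; Cidec, -1.23; sums 131 to 180 and 252 to 442 TPM), and epithelium 4 of 8 higher and 2 lower (Krt20, 4.37; Alpi, -1.99; sums 6589 to 8326 and 9720 to 12330 TPM). Macrophage markers had 3 of 8 lower and 1 higher, or 3 and 3 on the median scale (Csf1r, -1.92; Itgam, 0.74; sums 192 to 232 and 140 to 189 TPM). Lymphocyte markers had 1 of 7 higher (Jchain, 3.03; sums 6.42 to 21.7 and 13.2 to 82.3 TPM), and cell cycle genes 4 of 8 higher and 1 lower (Birc5, 0.83; Mcm6, -0.70; sums 172 to 234 and 202 to 218 TPM). On the median scale lower and higher calls were 10 and 2 for fibroblasts, 10 and 0 for endothelium, 5 and 0 for pericytes, 7 and 0 for neurons and glia, 0 and 3 for mesothelium, 2 and 6 for epithelium and 1 and 7 for cell cycle genes. Over all genes tested, 43.7% were lower and 14.6% higher, and 28.3% were lower on the median scale. No marker was at 0 in every library of a group, and the part of cell makeup in the lower matrix levels was not tested.

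**Figure D4:**
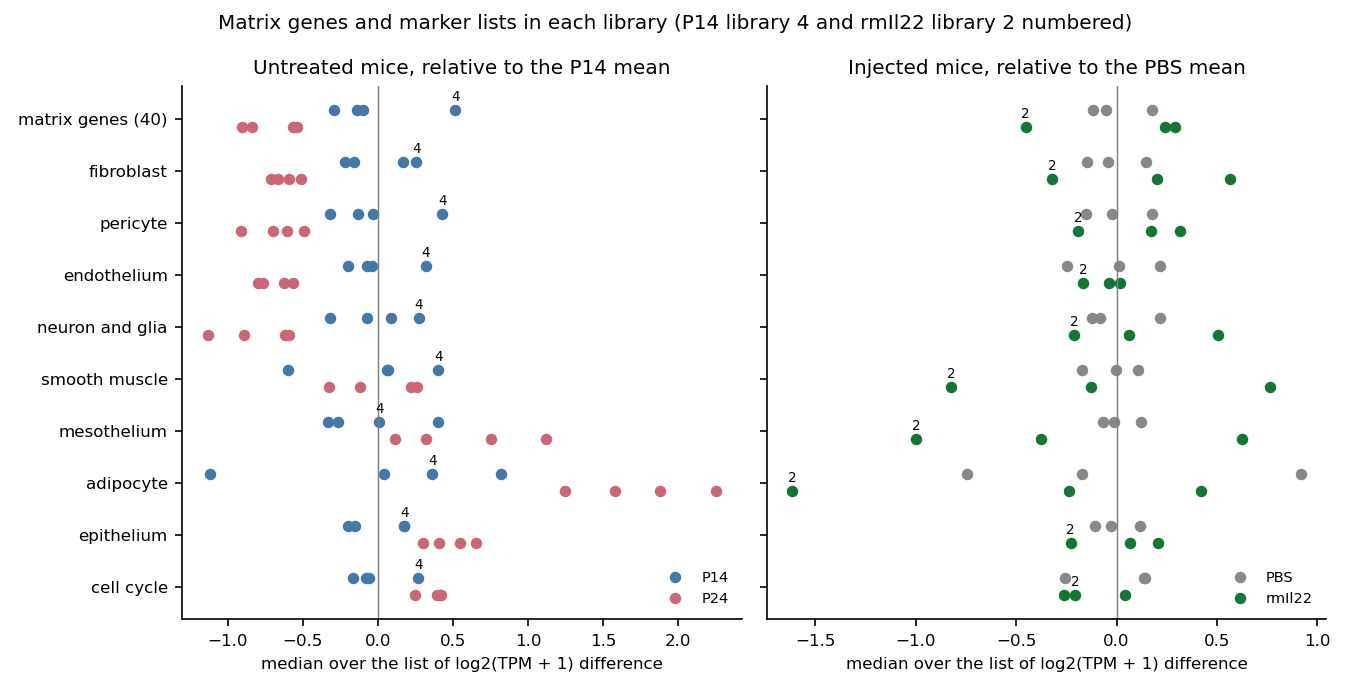
Median difference in log2(TPM + 1) over the 40 matrix genes and over 9 marker lists, 1 point per library, relative to the mean of P14 (left) or PBS (right). For the matrix genes all P24 libraries lie between -0.91 and -0.54 and P14 library 4 at 0.52, and rmIl22 library 2 (-0.45) is apart from rmIl22 libraries 1 and 3 (0.24 and 0.29).

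The second comparison asked what interleukin-22 changed in the matrix genes of day 16 mice. None of the 40 passed limma's test (0 lower and 0 higher at adjusted p under 0.05), where 2.25% of the 14456 genes tested were lower and 0.443% higher. At an unadjusted p under 0.05 there were 4, Timp3 and Fbln1 lower and Pdgfra and Vcan higher, where 11.4% of all genes were lower and 4.07% higher at that threshold. By limma's voom on recovered reads 0 were called at adjusted p under 0.05. The matrix median was 0.05, against -0.05 for all genes. The groups did not overlap in 2 genes with lower values (Timp3 and Fbln1; 15.4% of all genes) and in 4 with higher values (Col4a1, Col4a2, Vcan and Pdgfra; 5.62% of all genes). Without rmIl22 library 2 these counts were 3 and 15 of 40, against 21.3% and 19.0% of all genes. The 95% interval stayed within -1 and 1 in 33 of the 40 genes, and in the other 7 (Timp3, Col14a1, Postn, Col12a1, Col6a3, Hspg2 and Lum) it reached past a 2-fold change. Leaving out rmIl22 library 2, the matrix median was 0.29 and still 0 were called, while calls over all genes went from 389 to 1329.

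Timp3 again had the largest negative value. It stood at 40.1, 28.8 and 46.9 TPM in PBS and at 24.8, 14.0 and 20.4 TPM in rmIl22, so that every treated library was below every control. The mean was 1.95-fold lower (-0.94, SE 0.24, unadjusted p = 0.00584, adjusted p = 0.105). The adjusted p ranged from 0.0173 to 0.524 over 13 alternatives and was under 0.05 in 2 of them. With a term for Xist-high libraries the estimate was -0.59 (adjusted p = 0.524), and the only Xist-low treated library had 24.8 TPM against 28.8 to 46.9 TPM in the Xist-low controls. The authors' deposited table for this comparison, which lists 1102 genes with adjusted p under 0.01, held 1 of the 40 genes, Timp3, with a log2 fold change of -0.94 (adjusted p = 1.75e-05).

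Fbln1 was at 26.5, 34.1 and 39.2 TPM in PBS and at 24.0, 26.4 and 21.4 TPM in rmIl22 (-0.45, SE 0.16, adjusted p = 0.239). The highest treated value was just under the lowest control. Col14a1 was at 11.8, 9.08 and 13.4 TPM in PBS and at 10.4, 3.08 and 15.4 TPM in rmIl22, where library 2 alone was low (-0.43, SE 0.47, adjusted p = 0.779). Of the largest positive values, Vcan was at 2.09, 2.34 and 1.72 TPM and at 2.38, 3.08 and 3.65 TPM (0.40, SE 0.17, adjusted p = 0.323). Hspg2 was at 15.4, 10.9 and 8.65 TPM and at 9.49, 13.7 and 22.7 TPM, with wide overlap (0.32, SE 0.32, adjusted p = 0.746). Pdgfra was at 17.8, 20.9 and 21.3 TPM in PBS and at 23.7, 25.3 and 23.5 TPM in rmIl22, a narrow gap with tight treated values (0.26, SE 0.11, adjusted p = 0.315). Its fellow receptor Pdgfrb had a log2 fold change of 0.00 with a 95% interval of -0.24 to 0.24.

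The abundant genes followed the spread of the treated libraries. Col3a1 was at 265, 261 and 393 TPM in PBS and at 398, 153 and 343 TPM in rmIl22, and Sparc at 243, 276 and 346 TPM and at 390, 152 and 299 TPM. Dcn was at 178, 176 and 266 TPM and at 267, 119 and 237 TPM. In these 3 genes rmIl22 library 2 was the lowest of the 6. Col6a1 (95.9, 108 and 126 TPM; 143, 79.2 and 119 TPM), Mmp2 (33.4, 41.1 and 47.0 TPM; 51.4, 31.0 and 47.0 TPM) and Loxl2 (10.6, 11.5 and 13.2 TPM; 13.9, 7.05 and 12.8 TPM) were also lowest there. Col4a1 was not low in that library, at 112, 120 and 128 TPM in PBS and at 130, 133 and 130 TPM in rmIl22 (0.13, SE 0.10, adjusted p = 0.672). For Col1a1 the interval of the difference was -0.82 to 0.73, so a change of that size in either direction was not detectable with these libraries. The Pdgfra to Pdgfrb ratio was 1.75 in PBS and 2.12 in rmIl22 without overlap (exact permutation p = 0.1, the smallest that 3 against 3 allow, 0.8 adjusted over 8 ratios), and the other 7 ratios gave exact p from 0.2 to 1.0.

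Among the other lists, 0 of 24 collagen processing genes, 0 of 16 other collagen chains, 0 of 24 matrix breakdown genes and 0 of 19 TGF-beta and PDGF signalling genes were called in limma's rmIl22 fit. Over all genes in that fit, 2.25% were lower and 0.443% higher. Of the marker lists, only the macrophage list held a call, the growth factor receptor Csf1r (1 of 8, -1.16, adjusted p = 0.0151), with list sums of 252 to 309 TPM in PBS and 204 to 252 TPM in rmIl22. Fibroblast markers summed to 542 to 660 TPM in PBS and to 451 to 1315 TPM in rmIl22. Of these sums, Dpep1 alone was 75.1 to 105 and 62.0 to 590 TPM, and without it they were 437 to 585 and 389 to 725 TPM. Smooth muscle markers summed to 2025 to 2541 and 1196 to 3928 TPM, and endothelial markers to 86.8 to 124 and 97.3 to 101 TPM.

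The difference between both effects, the P24 minus P14 change less the rmIl22 minus PBS change, was tested in 1 fit of all 14 libraries over 15702 genes. In 14 of the 40 matrix genes the age change was the lower one, in 0 the higher one, where 17.3% of all genes were lower. These were 6 of 9 basement membrane genes (Lamc1, Nid1, Lamb1, Lama4, Col4a2 and Col4a1), 3 of 4 protease and inhibitor genes (Timp3, Mmp2 and Mmp14), both PDGF receptors, Vcan, Lox and Col6a2. Lamc1 fell with age (-1.27) and had a log2 fold change of 0.10 after interleukin-22, a difference of -1.37 (SE 0.26, adjusted p = 0.00242). Pdgfra differed by -1.36 (SE 0.19, adjusted p = 0.000267). Timp3, negative in both comparisons, differed by -1.26 (SE 0.29, adjusted p = 0.0078). The fibrillar chains had 0 of 5 calls, with differences from -1.08 (Col1a1, adjusted p = 0.152) to -0.70 (Col5a2, adjusted p = 0.159). Without rmIl22 library 2 the count was 27 of 40, and 4997 of 15655 genes in all were called in either direction. Without PBS library 1 it was 9 of 40, and 2799 of 15667 genes were called. The reported fit called 3734 of 15702 genes. Of the 14 matrix genes, 8 passed in all 18 alternatives.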

How the data were processed

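Total RNA of 14 whole ileum samples was depleted of ribosomal RNA and sequenced from stranded libraries, as the labels' protocols state. The table the authors deposited holds TPM per gene symbol. FastQC 0.11.2, STAR 2.4.0f, HTSeq 0.6.1p1, DESeq2 1.14 and mm10 are named in the submitters' processing notes, without their roles. Annotation and strand setting are not stated there. The authors' deposited comparison tables give log2 fold changes and adjusted p-values with decimal commas, read as points. Of 46882 table entries, 27 with date-like names were left out. Whole reads were recovered from the TPM steps for 31189 genes, with 99.997% of values within 0.01 of a whole number, giving 35.33 to 46.1 M reads per library (median 42.32 M).

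Genes reaching 1 TPM in 4 libraries (P24 against P14) or 3 (the other fits) were tested on log2(TPM + 1), which understates changes of low genes, with limma 3.58.1 (R 4.3.3, trend in the empirical Bayes step, two-sided), each comparison on its own libraries. Benjamini-Hochberg adjustment ran over every gene tested and calls used 0.05. The labels call the replicates biological. Column numbers at P14 and P24 are not the labels' replicate numbers and named libraries only. The scripts were tested on simulated data. The alternatives were a pseudocount of 0.1, no filter, median scaling, 1 fit of all 14 libraries, voom on recovered reads, each library left out, a replicate block and, chosen after seeing the data, a term for libraries with Xist of at least 1 TPM.

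The members and lists were chosen with earlier results of these data known. Values in every library are given for the most abundant gene of each role and the 3 largest falls and rises of each comparison. Of each list the called genes with the largest fall and rise are named. Ratios were tested by exact permutation. Positions are from GENCODE on mm10 and promoters from RefSeq on GRCm38.p6. For 1 list, other matrix proteins, the rmIl22 result is not reported here.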

Additional observations from a re-analysis of the deposited data

Results flagged for a closer look

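In 10 of 80 groups of 4 libraries, 1 library stood apart from the other 3 (its gap to the nearest value was most of the group's range, past Dixon's 95% limit, which chance alone passes in about 5% of groups). P14 library 4 was the high one in 9 of them: Col1a2 (141 TPM), Col5a1 (48.9 TPM), Col6a2 (76.1 TPM), Col15a1 (19.9 TPM), Lama4 (21.1 TPM), Lamb1 (44.4 TPM), Fbn1 (26.8 TPM), Bgn (15.3 TPM) and Pdgfrb (17.2 TPM). In the other, P24 library 1 was low for Dcn (125 TPM). The genes are not independent, since the same library was high for 38 of the 40.

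The P24 minus P14 change, in which age and weaning go together, and the response to interleukin-22 differed in 14 matrix genes by limma's contrast. In all 14 the P24 minus P14 change was the lower one, where 17.3% of all genes were lower. The differences in log2 fold change were -1.37 for Lamc1, -1.19 for Nid1, -1.18 for Lamb1, -0.94 for Lama4, -0.92 for Col4a2 and -0.81 for Col4a1 in the basement membrane. They were -1.26 for Timp3, -1.10 for Mmp2 and -0.80 for Mmp14, -1.36 for Pdgfra and -0.72 for Pdgfrb, and -1.0 for Vcan, -1.0 for Lox and -0.87 for Col6a2. Over 18 alternatives Col6a2 passed in 4, Lox in 8, Pdgfrb in 12, Col4a1 in 15, Lama4 and Mmp14 in 17 each and the other 8 in all 18. With each library scaled to its median, limma's adjusted p was 0.0536 for Col6a2 and 0.0704 for Pdgfrb.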

How the results depend on the processing

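P24 against P14 had 23 to 34 lower matrix genes and 0 higher in every setting run: 32 with a pseudocount of 0.1, 26 with no filter, 23 with median scaling, 31 in 1 fit of all 14 libraries, 25 with voom, 34 with the Xist term and 26 to 34 with 1 library left out. Of the 32 genes, 23 were called in all 14 alternatives. Over all genes, calls in either direction ran from 7102 of 14139 (without P14 library 2) to 8550 of 14651 (voom), and were 9435 of 29860 with no filter. For rmIl22 against PBS, 1 matrix gene (Timp3) was lower in 1 fit of all 14 libraries. Calls over all genes, 389 in the reported fit, were 98 with no filter, 1058 in 1 fit of all 14 libraries, 122 with the Xist term and 4 to 1329 with 1 library left out. The lowest came without PBS library 3 and the highest without rmIl22 library 2. In the difference of effects, 9 to 27 matrix genes were lower with 1 library left out, and 2400 to 4997 genes in all. The causes were not tested.

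With a replicate block for PBS and rmIl22 libraries of the same number, 1 matrix gene was lower (Timp3, adjusted p = 0.0387) and 280 genes were called in all. Same-numbered libraries correlated at -0.07, 0.33 and -0.05 in their deviations from the group means. Differently numbered libraries ran from -0.338 to 0.405, so these values cannot decide whether the numbers pair the libraries. No paired analysis was possible because, for P24 against P14, the columns do not carry the replicate numbers of the labels. Each of the 40 genes had at least 343 reads in every library, and the effect of depth was not tested.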

Other observations

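Lamb3 and Lama3, laminin chains of epithelial basement membranes, were not among the 40 genes. Lamb3 was at 2.48 to 4.13 TPM at P14 and at 32.0 to 54.3 TPM at P24, and at 2.42 to 2.54 TPM in PBS and 3.64 to 41.3 TPM in rmIl22, where the libraries spread widely (adjusted p = 0.187 by limma). Lama3, chosen after its values were seen, was at 45.0 to 54.0 and 27.7 to 46.8 TPM at P14 and P24 (adjusted p = 0.0559), and at 21.5 to 29.2 and 20.6 to 49.5 TPM in PBS and rmIl22.

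Timp1, another inhibitor of the family and also chosen after its values were seen, was at 1.11 to 2.69 TPM at P14 and 1.22 to 2.98 TPM at P24. It ranged from 2.23 to 21.9 TPM among the PBS mice and from 3.51 to 35.3 TPM among the rmIl22 mice.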
